A study of Mus musculus with 8 samples.

Results

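The genes described here are 38 markers of macrophages, dendritic cells, lymphocytes, natural killer cells and neutrophils, taken by name from a list of leukocyte markers out of 42416 gene identifiers in the count tables. They were read in RNA sequencing libraries of sorted mouse distal convoluted tubule fragments, a nephron segment that takes up NaCl through the cotransporter blocked by thiazides. The 4 Control libraries came from animals of the genotype Cnb1fl wt and the other 4, labelled KO, from animals of the genotype Cnb1fl Tg/Tg. Cnb1 is the regulatory chain of calcineurin, a phosphatase. All 8 animals carried NCCcre Tg/+, a Cre transgene named for the NaCl cotransporter, and a reporter given as TOMATO Tg/+, and all received tamoxifen by gavage (2 mg daily per animal, given on 5 days) and were studied 3 weeks after induction. Each library was made from 1000 fragments collected on a particle sorter, and leukocytes were not the cells selected. Neither age nor sex is given in the labels used here. Every title names a different animal, and replicate numbers below are only names, given in order of accession.

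Kidneys hold a network of resident macrophages between the tubules. These cells depend on the receptor Csf1r, carry the pan-leukocyte phosphatase Ptprc (CD45), make the 3 chains of complement C1q and present peptides on MHC class II molecules with the invariant chain Cd74. T cells are defined by the CD3 chains, B cells by Cd79a and Ms4a1 (CD20), and neutrophils by the calgranulins S100a8 and S100a9. Some of these genes are not confined to leukocytes: Cd14, Cd74 and MHC class II genes can be made by kidney epithelium, and Cd68 by some other cells. In these bulk libraries, fewer cells of a type and less RNA per cell cannot be told apart.

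Total counts ranged from 18161442 to 45150953 per library, so that 1 count was worth between 0.0205 and 0.0522 CPM (counts scaled to a common library size by the trimmed mean of M values, TMM). The cotransporter gene Slc12a3, which defines the labelled segment, stood between 3908 and 8068 CPM in every library. Of 9 markers of the segment, 5 fell and 0 rose by edgeR's quasi-likelihood test, where 0.876% of all 14268 genes tested fell and 1.34% rose. Pvalb, among the 5, stood at 178 to 987 CPM in Control and 1.5 to 2.14 CPM in KO. The 9 markers summed to 17638 to 20588 CPM in Control and 6558 to 12117 CPM in KO. Other tubule cells were present too: the 7 proximal tubule markers summed to 878 to 3472 CPM in Control and 971 to 2145 CPM in KO, 5 thick ascending limb markers summed to 7456 to 12207 and 2736 to 5461 CPM, and 7 endothelial markers summed to 21.4 to 39.5 and 7.51 to 49.9 CPM. Against that scale the 38 leukocyte markers together summed to 41.8 to 44.1 CPM in Control and 45.4 to 90.1 CPM in KO. Ppp3r1, the gene of Cnb1, stood at 108, 97.3, 99.7 and 84.3 CPM in the Control libraries and at 80.6, 74.0, 97.7 and 92.4 CPM in the KO libraries. Its groups overlapped (log2 fold change -0.18 ± 0.13, edgeR quasi-likelihood adjusted p = 0.548), so whole-gene counts, which also cover exons that may not have been deleted, did not check the labels, and KO below means the library labelled KO.

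The upstream windows of 4 members are shown because H2-Aa and H2-Eb1, and likewise C1qb and Cd68, had very different levels in 1 library, KO replicate 4, as given further on. The first pair belongs to MHC class II genes. The capitals mark ATTGG or, on the other strand, CCAAT, the letters of the Y box through which the factor NF-Y binds class II promoters.
H2-Aa: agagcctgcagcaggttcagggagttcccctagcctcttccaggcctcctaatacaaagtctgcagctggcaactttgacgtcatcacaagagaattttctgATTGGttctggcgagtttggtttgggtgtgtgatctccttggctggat
H2-Eb1: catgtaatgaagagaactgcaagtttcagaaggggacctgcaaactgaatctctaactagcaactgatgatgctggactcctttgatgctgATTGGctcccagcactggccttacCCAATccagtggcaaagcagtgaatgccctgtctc
These are the 150 bases before the RefSeq start sites, at chr17:34287824-34287973 on the minus strand and chr17:34305717-34305866 on the plus strand of GRCm38.p6, both written 5′ to 3′ along the gene. ATTGG begins 48 bases before the start of H2-Aa and 59 bases before that of H2-Eb1, where CCAAT begins 35 bases before the start. The other pair holds GAGGAA in capitals, letters in the core of sites bound by PU.1, the myeloid factor encoded by Spi1. TTCCTC, the same letters on the other strand, was searched as well.
C1qb: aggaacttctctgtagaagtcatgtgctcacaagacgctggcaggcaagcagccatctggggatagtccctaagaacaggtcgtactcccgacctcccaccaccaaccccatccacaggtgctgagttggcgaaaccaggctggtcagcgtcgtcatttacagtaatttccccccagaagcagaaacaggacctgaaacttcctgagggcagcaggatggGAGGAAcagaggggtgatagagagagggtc
Cd68: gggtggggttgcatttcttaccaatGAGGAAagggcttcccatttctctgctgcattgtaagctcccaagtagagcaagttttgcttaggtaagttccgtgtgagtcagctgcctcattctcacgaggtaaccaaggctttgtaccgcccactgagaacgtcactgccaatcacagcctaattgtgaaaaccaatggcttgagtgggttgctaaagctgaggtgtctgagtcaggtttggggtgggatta
These are the 250 bases before the start sites, at chr4:136886201-136886450 and chr11:69666171-69666420, both on the minus strand. GAGGAA begins 30 bases before the start of C1qb and 225 bases before that of Cd68. Of 32817 RefSeq windows of 250 bases, 33.8% held ATTGG or CCAAT and 23.3% held GAGGAA or TTCCTC. Of the 38 members, 27 were matched in the RefSeq table, 11 of which had the Y box letters and 16 the GAGGAA letters in a window. Neither motif is contained in the other, and a match is only a description of the sequence.

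None of the 38 markers passed the threshold in the comparison of KO with Control. A count was found for 36 of them, 16 passed the filter on low counts and could be tested, and 0 of the 16 were higher and 0 lower at an adjusted p under 0.05 by edgeR's quasi-likelihood test (QL), with 2.21% of all 14268 genes called (1.34% higher and 0.876% lower). The filter keeps genes with enough counts in at least 4 libraries, which can all be of 1 group, so the 16 do not stand for all members. At an unadjusted p under 0.05 there were 5 members, Csf1r, Cd68 and Ptprc with higher means in KO and Fcer1g and H2-Ab1 with lower ones, where 13.9% of all genes tested had such a p. Limma-voom called 0 members, with 4.03% of all genes called, and DESeq2 called 3 members (Csf1r, Cd68 and Ptprc, all higher), with 5.25% of all genes called. The log2 fold changes of the 16 ran from -1.27 to 2.21 with a median of 0.08, beside a median of -0.02 over all genes tested.

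**Figure D1:**
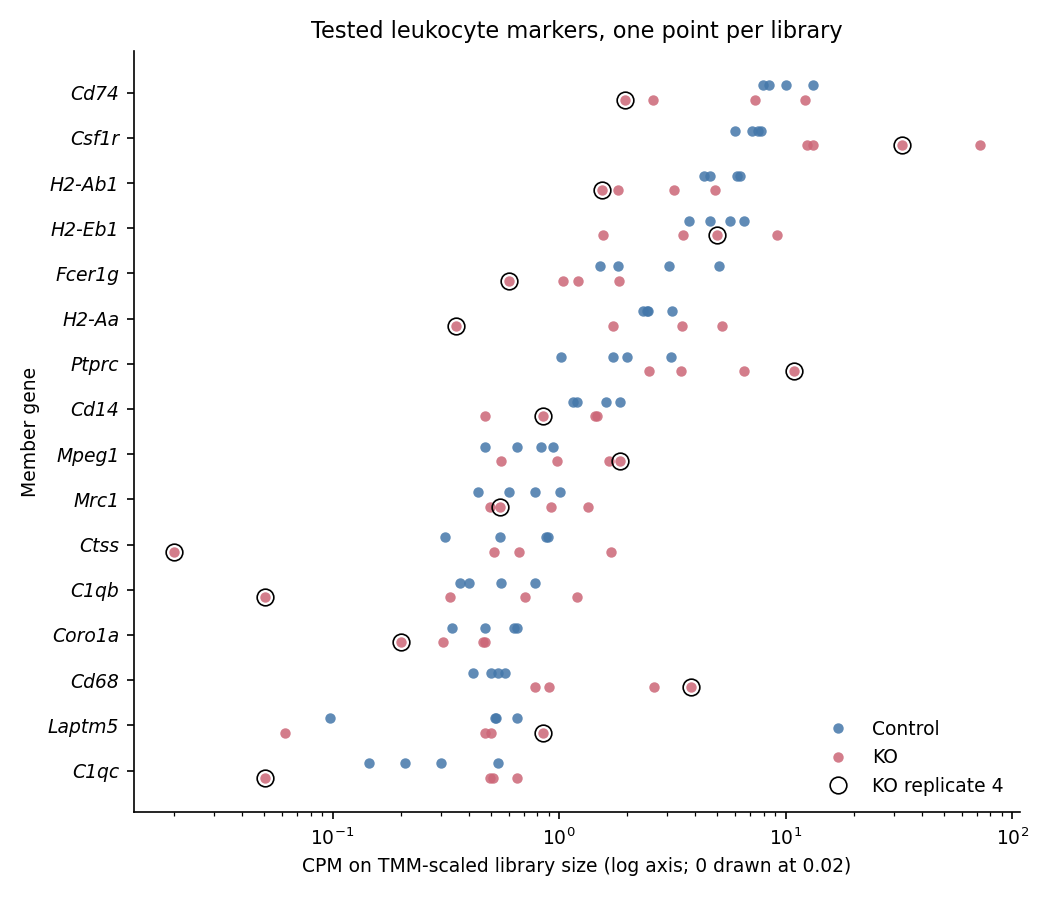
Levels of the 16 tested leukocyte markers in each library, in CPM on a log axis, with Control libraries in blue, KO libraries in red and KO replicate 4 ringed. Csf1r and Cd68 do not overlap between groups. KO replicate 4 is lowest for Cd74, H2-Ab1, H2-Aa, Fcer1g, Coro1a, C1qb, C1qc and Ctss and highest for Ptprc, Cd68, Mpeg1 and Laptm5.

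Csf1r, the receptor for the growth factors CSF1 and IL-34 on which macrophages depend, had the most counts of the set, 5523 over all libraries. It lies on chromosome 18 (61100598 to 61132149, plus strand, GRCm38). Csf1r stood at 7.11, 6.01, 7.78 and 7.56 CPM in Control replicates 1 to 4 and at 72.2, 12.4, 13.2 and 32.8 CPM in KO replicates 1 to 4. All 4 KO libraries were above all 4 Control libraries, and KO replicates 1 and 4 were far above the other KO libraries. The log2 fold change was 2.21 ± 0.52 (n = 4 per group, SE, 95% interval 1.06 to 3.36), and edgeR QL gave an adjusted p of 0.064, which missed the threshold. Over the 16 other settings the adjusted p ran from 0.000203 to 0.165, and 4 of them called it (DESeq2, library totals, no filter on low counts, and edgeR QL without KO replicate 3). Leaving out KO replicate 1 brought it to 1.44. Part of the Csf1r exons (873 bases of 5774) overlaps exons of Hmgxb3 on the opposite strand, which held 149% as many counts, and no strand setting is given for the counting. Hmgxb3 counts were 644, 1676, 649 and 689 in Control replicates 1 to 4. In KO replicates 1 to 4 they were 1940, 919, 1088 and 646. Csf1r counts were 146, 250, 149 and 151 in Control and 3513, 322, 337 and 655 in KO. These counts are not scaled, and KO replicate 1 had the most total counts. The share of Csf1r counts that came from Hmgxb3 was not tested.

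Cd68, a glycoprotein of macrophage endosomes and lysosomes, was low in Control and spread widely in KO. It lies on chromosome 11 (69664213 to 69666153, minus strand). Cd68 stood at 0.536, 0.577, 0.418 and 0.501 CPM in Control replicates 1 to 4 and at 0.904, 2.62, 0.786 and 3.81 CPM in KO replicates 1 to 4. The groups did not overlap, and KO replicates 2 and 4 held the high values. The log2 fold change was 1.96 ± 0.54 (n = 4 per group, SE, edgeR QL adjusted p = 0.116), from 208 counts in KO and 53 in Control. Csf1r and Cd68 were the 2 of 16 tested members whose groups did not overlap, both higher in KO, where 5.61% of all genes tested were separated in that direction and 9.44% in either.

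Ptprc, the CD45 phosphatase found on nearly all leukocytes, lies on chromosome 1 (138062861 to 138175708, minus strand). It stood at 1.02, 2.0, 1.72 and 3.11 CPM in Control replicates 1 to 4 and at 2.51, 6.55, 3.46 and 10.9 CPM in KO replicates 1 to 4. KO replicate 1 lay below Control replicate 4, so the groups overlapped, and KO replicate 4 was highest. The log2 fold change was 1.56 ± 0.49 (n = 4 per group, SE, edgeR QL adjusted p = 0.172). Leaving out KO replicate 4 brought Ptprc to a log2 difference of 1.08 (edgeR QL adjusted p = 0.467).

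The other pan-leukocyte members had few counts. In KO replicate 4, 217 counts of Ptprc stood beside 17 of Laptm5, a lysosomal protein of blood cells, 4 of Coro1a, an actin-binding protein of leukocytes, and 1 each of Cd52 and Lst1. KO replicate 4 was the highest library for Laptm5, at 0.851 CPM, and the lowest for Coro1a. Laptm5 had a log2 fold change of -0.02 ± 0.70 (95% interval -1.57 to 1.53) and Coro1a of -0.50 ± 0.42 (95% interval -1.44 to 0.44). Coro1a shares 26 exon bases with Bola2 on the opposite strand, which had far more counts, and Cd52 shares 172 with Crybg2. Cd52 and Lst1 were too low to be tested, with 43 counts of Cd52 over all libraries and 8 and 12 of Lst1 in the groups.

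Among the other macrophage receptors and markers, Cd14, a coreceptor for bacterial lipopolysaccharide, stood at 1.85, 1.61, 1.20 and 1.15 CPM in Control replicates 1 to 4 and at 1.44, 1.46, 0.472 and 0.851 CPM in KO replicates 1 to 4. Mpeg1, a pore-forming protein of macrophages, stood at 0.828, 0.938, 0.470 and 0.651 CPM in Control and at 0.555, 1.66, 0.983 and 1.85 CPM in KO. For both genes the groups overlapped, and KO replicates 3 and 4 were lowest for Cd14. Mrc1, the mannose receptor, stood at 0.708 ± 0.245 CPM in Control and 0.826 ± 0.390 in KO (n = 4 per group, SD). The log2 fold changes of Cd14, Mpeg1 and Mrc1 were -0.45, 0.76 and 0.19, each with a 95% interval that included 0. The remaining 9 were too low to be tested. Adgre1 (F4/80), the classical marker of mouse tissue macrophages, had 28 counts in all Control libraries and 30 in all KO libraries. Cx3cr1, the fractalkine receptor, had 13 and 33, the integrins Itgam and Itgax had 9 and 9 (Itgam) and 15 and 18 (Itgax), and Aif1 (IBA1) had 8 and 17. The Fc receptor Fcgr1 had 2 and 9, and Fcgr3 had 15 and 19. Of the Itgam exons, 3450 bases are shared with Gm49368 on the same strand. Trem2, a lipid receptor of macrophages, had 2 and 0, and the scavenger receptor Cd163 had no count in any library, which allows up to 0.0136 CPM over all 8 (counting error only, 3 counts).

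Fcer1g, the adaptor chain that carries the signal of Fc receptors, went the other way in its means. Fcer1g stood at 5.07, 1.83, 1.51 and 3.06 CPM in Control replicates 1 to 4 and at 1.21, 1.04, 1.85 and 0.601 CPM in KO replicates 1 to 4. KO replicate 3 lay above Control replicates 2 and 3. The log2 fold change was -1.27 ± 0.45 (n = 4 per group, SE, edgeR QL adjusted p = 0.241). Tyrobp (DAP12), the matching adaptor of Trem2, was too low to be tested, with 18 counts in Control and 26 in KO. In Control, 270 counts of Fcer1g stood beside those 18 of Tyrobp, and the cells they came from were not tested. Per exon length, Fcer1g was at 6.79 ± 3.09 TPM in Control and Tyrobp at 0.498 ± 0.423 TPM (n = 4 libraries, SD; TPM, transcript abundance scaled for exon length and library).

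The complement C1q chains, which lie next to each other on chromosome 4 between 136880129 and 136898803, were read from few counts. C1qb, the most counted chain, stood at 0.780, 0.553, 0.366 and 0.401 CPM in Control replicates 1 to 4 and at 0.329, 1.19, 0.708 and 0.0501 CPM in KO replicates 1 to 4. KO replicates 2 and 4 were the highest and lowest of all libraries, and KO replicate 1 was also below every Control library. The counts of C1qa, C1qb and C1qc together were 36, 44, 13 and 19 across Control replicates 1 to 4, and across KO replicates 1 to 4 they were 65, 66, 35 and 2. C1qb and C1qc had log2 fold changes of 0.11 ± 0.66 and 0.60 ± 0.64 (n = 4 per group, SE, edgeR QL adjusted p = 0.947 and 0.685). Set against the Csf1r counts, the C1q counts differed widely between libraries, and which cells these reads came from was not tested. KO replicate 4 held 655 counts of Csf1r and 2 of C1q, and KO replicate 1 held 3513 and 65. KO replicate 2 held 322 and 66, and Control replicate 2 held 250 and 44.

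The antigen presentation genes were the most counted group after Csf1r. Cd74, the invariant chain that guides class II molecules, stood at 8.48, 10.1, 13.3 and 7.91 CPM in Control replicates 1 to 4 and at 2.59, 12.1, 7.31 and 1.95 CPM in KO replicates 1 to 4. KO replicates 1, 3 and 4 lay below all Control libraries, KO replicate 3 by the least, and KO replicate 2 lay within their range. H2-Ab1, a class II beta chain, stood at 4.39, 6.27, 6.11 and 4.66 CPM in Control and at 1.83, 4.89, 3.22 and 1.55 CPM in KO. Only KO replicate 2 reached the Control range for H2-Ab1. Cd74 had a log2 fold change of -0.73 ± 0.50 and H2-Ab1 of -0.90 ± 0.36 (n = 4 per group, SE, edgeR QL adjusted p = 0.533 and 0.296).

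The alpha chain H2-Aa and the beta chain H2-Eb1 parted in KO replicate 4. H2-Aa stood at 3.17, 2.48, 2.35 and 2.45 CPM in Control replicates 1 to 4 and at 1.73, 5.24, 3.5 and 0.351 CPM in KO replicates 1 to 4. H2-Eb1 stood at 6.53, 4.62, 3.76 and 5.66 CPM in Control and at 1.56, 9.21, 3.54 and 4.96 CPM in KO. KO replicate 4 thus held 99 counts of H2-Eb1 and 7 of H2-Aa, while Control replicate 4 held 113 and 49. The windows shown for both genes hold ATTGG within 60 bases of the start. The log2 fold changes were 0.05 ± 0.58 for H2-Aa and -0.10 ± 0.45 for H2-Eb1 (n = 4 per group, SE, edgeR QL adjusted p = 0.97 and 0.931). Ctss, the protease cathepsin S that trims the invariant chain, had 72 counts in Control and 86 in KO, with 44 in KO replicate 2 and 0 in KO replicate 4.

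**Figure D2:**
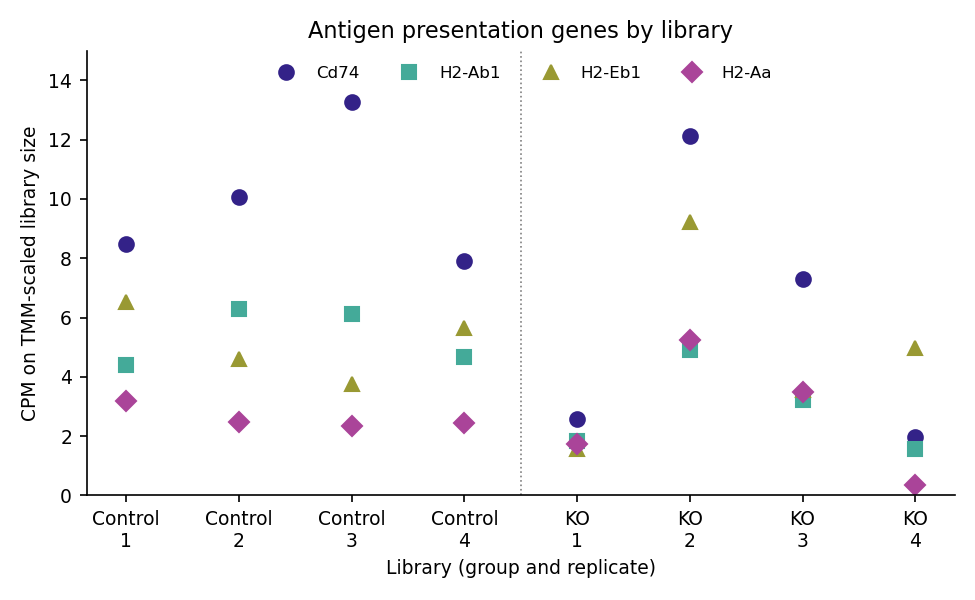
Levels of Cd74, H2-Ab1, H2-Eb1 and H2-Aa in CPM for the 4 Control and 4 KO libraries, with 1 point per gene and library. KO replicate 2 is the highest library for H2-Eb1 and H2-Aa, KO replicate 1 is below every Control library for all 4 genes, and in KO replicate 4 H2-Eb1 stands at 4.96 CPM above Cd74 at 1.95 CPM.

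Other genes of class II synthesis were also without calls. Of 12 genes fixed as class II machinery, 8 were tested and 0 passed in either direction by edgeR QL, DESeq2 or limma-voom. Ciita, the coactivator that switches class II genes on, had between 1 and 20 counts in a library. The widely expressed NF-Y subunits Nfya and Nfyb had log2 fold changes of 0.36 and 0.29, and the class II loading chains H2-DMa and H2-DMb1 of -0.28 and -0.44.

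The lymphoid and neutrophil markers among the members had few counts, and no gene had more than 26 in any library. Cd8a stood at 0.625 CPM and S100a9 at 0.337 CPM in Control replicate 2. Low counts did not hold for all lymphoid genes. Igkc, an immunoglobulin gene outside the members that is described below, had 213 counts in Control replicate 3. Over the Control and the KO libraries, the CD3 chain Cd3e had 2 and 2 counts, Cd3g had 8 and 3, and the T cell coreceptor Cd4 had 3 and 3. Cd8a had 35 and 11, with 26 in Control replicate 2. Of the B cell genes, Cd79a had 1 and 3 counts and Ms4a1 none. Nkg7, a granule protein of cytotoxic cells, had 9 counts in Control and 1 in KO. The calgranulins had 2 and 2 counts (S100a8) and 19 and 11 counts (S100a9) over the Control and KO libraries. None of these 9 members could be tested. The 22 untested members together held 254 counts in Control and 273 in KO.

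A further list of 60 leukocyte genes was also without calls. A count was found for 52 of them, 6 could be tested and 0 passed by edgeR QL, DESeq2 or limma-voom. The 60 genes summed to 7.31 to 24.5 CPM in Control and 10.2 to 14.7 CPM in KO. The group means were 17.2 and 12.45 CPM, a log2 ratio of -0.46, against 0.62 for the 38 markers. Much of that difference lay in 1 gene, Igkc, the kappa light chain, with means of 4.62 CPM in Control and 0.936 CPM in KO. Irf8, an interferon regulatory factor of myeloid cells, had the smallest p (log2 fold change -1.09 ± 0.48, edgeR QL adjusted p = 0.346). Igkc stood between 0 and 11.1 CPM, with overlapping groups. Spi1, which encodes PU.1, was singled out after its values were seen, since it shared the pattern of Cd68. Its counts were 2, 1, 3 and 3 for Control replicates 1 to 4 and 15, 42, 2 and 55 for KO replicates 1 to 4. Too few libraries had enough counts for Spi1 to pass the filter on low counts. With no filter, 52 genes of the list were tested and 0 were called higher by edgeR QL. KO replicates 4 and 2 were high for Spi1, as for Cd68 and Ptprc, and KO replicate 3 was at the level of Control. The Cd68 and C1qb windows shown hold the same GAGGAA letters, and KO replicate 4 held 76 counts of Cd68 and 1 of C1qb. Whether PU.1 binds either window was not tested.

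Ligands of the member receptors were also read. Cx3cl1 (fractalkine), a ligand of Cx3cr1, stood at 42.7, 54.6, 46.4 and 54.3 CPM in Control replicates 1 to 4 and at 70.4, 78.3, 56.9 and 82.0 CPM in KO replicates 1 to 4. The groups did not overlap, and the log2 fold change was 0.54 ± 0.14 (n = 4 per group, SE, edgeR QL adjusted p = 0.101, DESeq2 adjusted p = 0.0266, limma-voom adjusted p = 0.0345). Csf1 and Il34, the ligands of Csf1r, had log2 fold changes of -0.06 ± 0.43 and -0.56 ± 0.53. Icam1, bound by the integrin of Itgam, had 0.25, Mif, a ligand of Cd74, had -0.27, and Apoe, a ligand of Trem2, had -0.92 (edgeR QL adjusted p = 0.338). Of the 7 genes in this list, which also holds the surface protein Cd34 (0.22), 0 passed by edgeR QL.

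**Figure D3:**
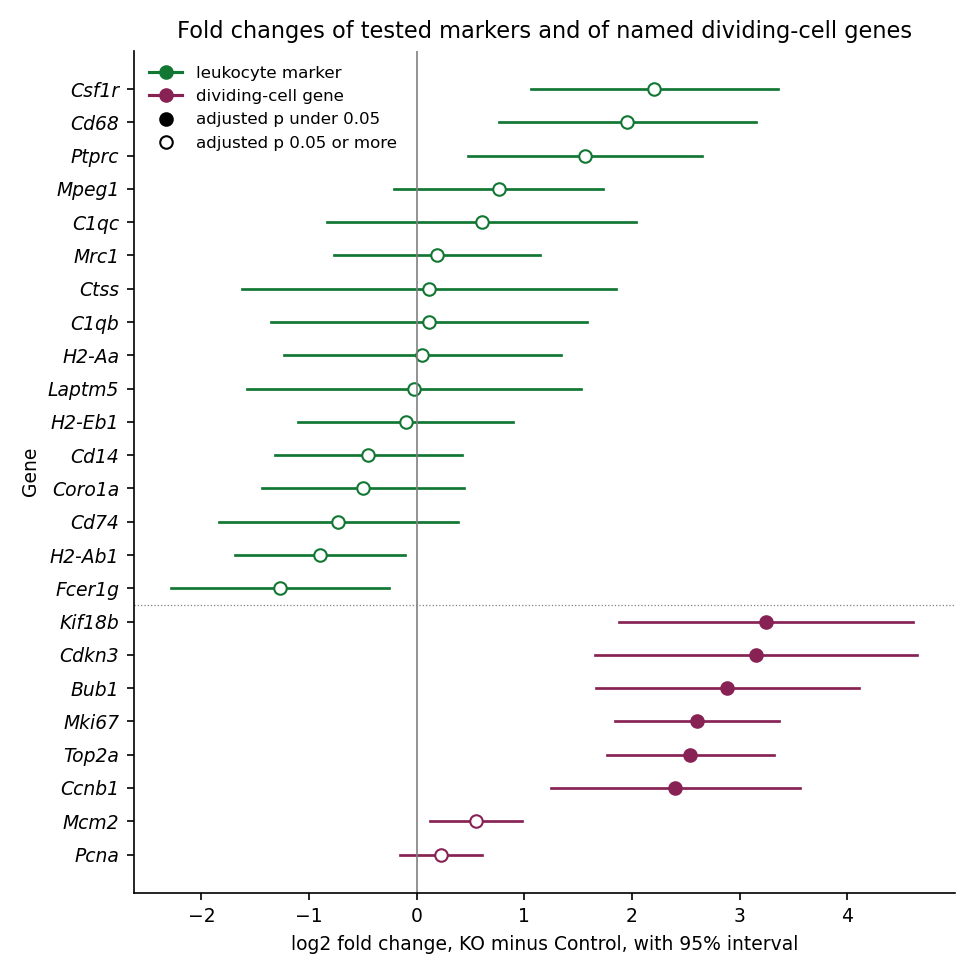
Log2 fold changes (KO minus Control) from edgeR QL with 95% intervals for the 16 tested leukocyte markers and 8 named dividing-cell genes, with filled points for an adjusted p under 0.05. All leukocyte points are open, while 6 dividing-cell genes between 2.40 and 3.24 are filled and Mcm2 and Pcna are open.

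Genes of dividing cells rose in KO, and the question asked is whether leukocytes carried along with the tubules could be their source. Of 48 dividing-cell genes, all tested, 35 rose and 0 fell by edgeR QL, and 13 did not pass, with a median log2 fold change of 2.17. Over all genes tested, 1.34% were called higher and 0.876% lower, with a median of -0.02. Mki67, a nuclear protein of cycling cells, stood at 1.95, 3.29, 3.81 and 3.81 CPM in Control replicates 1 to 4 and at 14.9, 22.3, 10.8 and 30.3 CPM in KO replicates 1 to 4. All 4 KO libraries were above all Control libraries for it. For Mki67 the log2 difference was 2.60 ± 0.34 (edgeR QL adjusted p = 0.00988) and passed in all 16 other settings. Top2a (2.54), Bub1 (2.89), Cdkn3 (3.15), Kif18b (3.24) and Ccnb1 (2.40) rose as well, while the replication genes Pcna (0.22) and Mcm2 (0.55) did not pass. That the members of this list rise was known from earlier results on these libraries. Leaving out Control replicates 1 to 4 in turn gave 17, 14, 9 and 3 calls, and leaving out KO replicates 1 to 4 gave 23, 3, 35 and 16. Blocking on the number series of the animals gave 1 call (Mki67), with fold changes of a like size (log2 2.67 for Mki67, 2.58 for Top2a, 2.64 for Bub1, 3.38 for Cdkn3, 3.08 for Kif18b and 2.19 for Ccnb1). Bub1 was called in 6, Cdkn3 in 5, Kif18b in 8 and Ccnb1 in 5 of 15 other settings.

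The summed level of all 38 markers and that of the dividing-cell genes were both higher in every KO library than in every Control library. The 48 dividing-cell genes summed to 243, 192, 206 and 201 CPM in Control replicates 1 to 4 and to 367, 506, 339 and 666 CPM in KO replicates 1 to 4. The 38 leukocyte markers summed to 44.1, 43.3, 43.1 and 41.8 CPM in Control and to 90.1, 67.2, 45.4 and 62.1 CPM in KO. KO replicate 4 was highest for the dividing-cell sum and KO replicate 1 for the leukocyte sum. The group means of the leukocyte sum were 43.1 ± 0.960 and 66.2 ± 18.5 CPM (n = 4 per group, SD), with a log2 ratio of 0.62. Csf1r alone made up 80.1% of it in KO replicate 1 and 52.8% in KO replicate 4, against 13.9% to 18.1% in Control. Without Csf1r the sum was 36.0 ± 1.44 and 33.5 ± 15.5 CPM, a log2 ratio of -0.10. The 5 antigen presentation markers summed to 23.4, 24.3, 25.8 and 21.2 CPM in Control and to 8.22, 33.2, 18.2 and 8.81 CPM in KO. KO replicate 2 was above and the other KO libraries were below every Control library for that group. KO replicate 4 was the library with fewest total counts. There, 15 of the 38 markers were at 0, among them C1qa, Tyrobp, Cx3cr1, Fcgr1, Fcgr3, Itgax and Ctss. C1qb, C1qc and Adgre1 had 1 count each. KO replicate 4 was highest for Ptprc, Cd68, Mpeg1, Laptm5, Aif1 (8 counts) and Cd79a (2 counts). Between 5 and 12 markers were at 0 in the other libraries. In Control replicate 4, where 1 count was likewise worth 0.0501 CPM, 6 were at 0. KO replicate 4 also had the lowest sums of endothelial (7.51 CPM), fibroblast and mural (0.25 CPM) and podocyte markers (2.10 CPM). The same library was lowest for markers of the distal convoluted tubule itself (6558 CPM) and of the thick ascending limb (2736 CPM). Its sums of collecting duct and intercalated cell markers (245 CPM) and of red blood cell markers (0.10 CPM) were lowest too. The proximal tubule sum was lowest in Control replicate 1. The part of leukocytes in the dividing-cell rise was not tested.

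**Figure D4:**
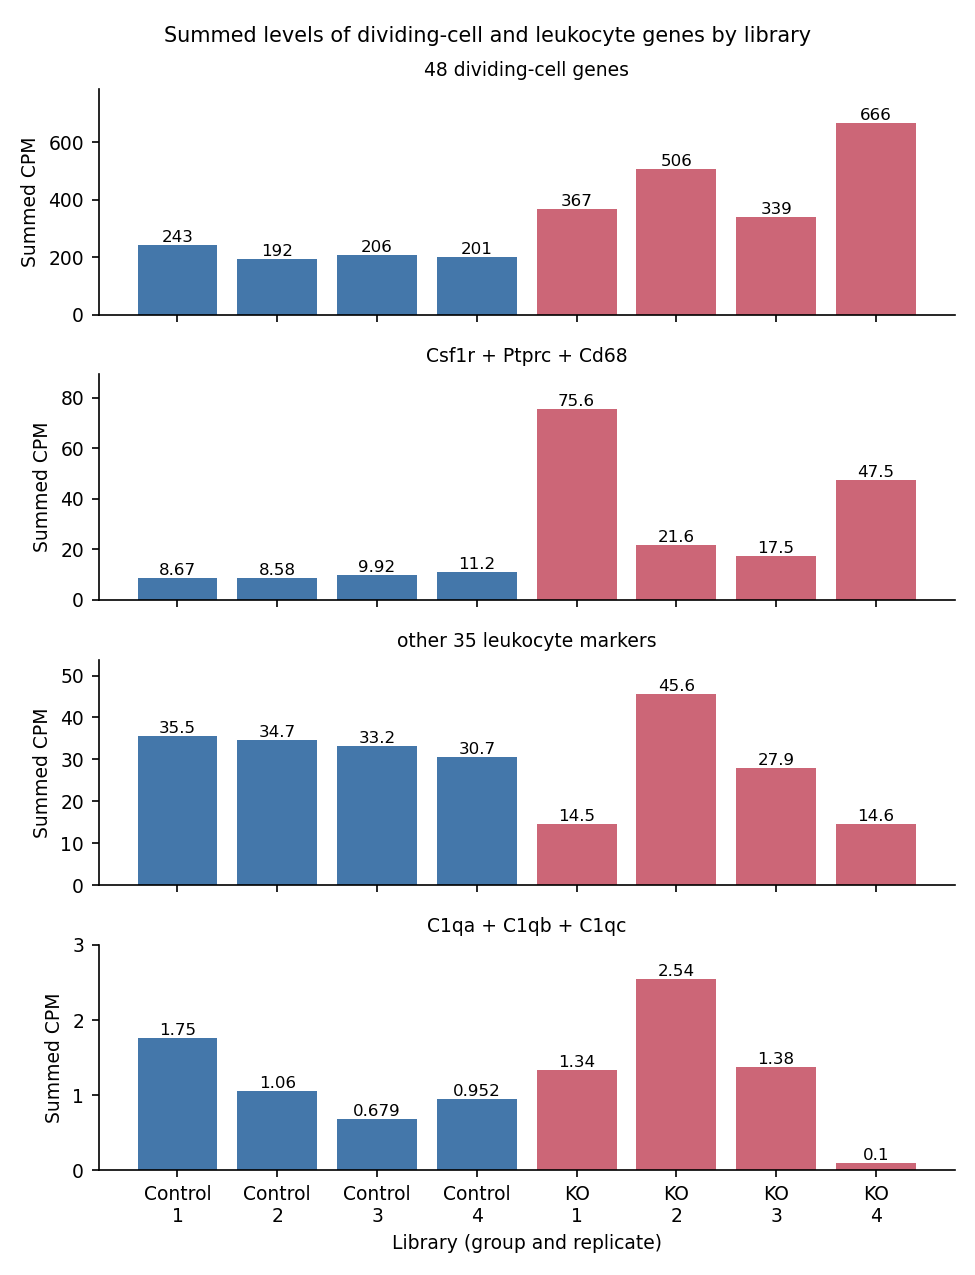
Summed CPM per library of the 48 dividing-cell genes, of Csf1r, Ptprc and Cd68, of the other 35 leukocyte markers and of the 3 C1q chains, from top to bottom, with Control in blue and KO in red. KO replicate 4 has the tallest bar for dividing-cell genes at 666 CPM and the shortest for C1q at 0.10 CPM.

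The split of the 38 markers into 3 and 35 in that plot was made because the 3 had higher means in KO, so the difference between the parts follows from the choice and supports nothing. Csf1r, Ptprc and Cd68 together summed to 8.67, 8.58, 9.92 and 11.2 CPM in Control replicates 1 to 4 and to 75.6, 21.6, 17.5 and 47.5 CPM in KO replicates 1 to 4. The other 35 summed to 35.5, 34.7, 33.2 and 30.7 CPM in Control and to 14.5, 45.6, 27.9 and 14.6 CPM in KO.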

How the data were processed

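The authors deposited read counts (whole numbers) for Ensembl gene identifiers in 8 libraries, without normalization. The tools STAR 2.7.4a, fastp 0.20.0 and bcl2fastq 2.20 and the build GRCm38.p6 are named per the submitters' processing notes. For the counting program, annotation release and strand setting, nothing is stated (not given in the sources used here). Gene names, coordinates and exon lengths come from GENCODE vM21 on GRCm38, which named 42347 of 42416 identifiers; the other 69 hold 0.0199% of counts. Genes were kept by edgeR's filterByExpr and scaled by TMM, and KO was compared with Control with the quasi-likelihood test of edgeR 4.0.16 (QL, two-sided, R 4.3.3) on genotype alone, with Benjamini-Hochberg adjustment over 14268 genes and a threshold of 0.05. The test was also run on simulated counts, drawn independently for each gene and library. Such counts hold no shifts between libraries that many genes share, so the run did not check for these. Standard errors were derived from the log2 fold change and F. Alternatives were DESeq2 1.42.0, limma 3.58.1 (voom with library quality weights), other scalings and filters, a batch term (how the deposited files are named), blocking on the number series of the animals, and leaving out each library. P-values measure only the spread between these libraries. TPM values were computed from counts and exon lengths. The members and lists were chosen with earlier results of these data known. Named genes were all 38 members, the ligand list, 8 dividing-cell genes and, from each other list, up to 4 past the threshold or else the 2 with the smallest p, printed only where a result turns on them. Members whose group mean reached 1 CPM are given per library, and C1qb outside that rule. H2-DMa, H2-DMb1, Ciita and Spi1 were named after their values were seen. Promoter windows come from RefSeq on GRCm38.p6.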

Additional observations from a re-analysis of the deposited data

Results flagged for a closer look

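In 3 of 62 groups of 4 libraries looked at, the highest or lowest library stood apart from the others of its group beyond Dixon's 95% critical value, where chance flags about 1 group in 20. H2-Aa was at 3.17 CPM in Control replicate 1, and the rest of Control lay between 2.35 and 2.48 CPM. Csf1, a ligand of Csf1r, was at 3.74 CPM in KO replicate 3, and the rest of KO lay between 1.3 and 1.54 CPM. Apoe was at 273.5 CPM in KO replicate 1, and the rest of KO lay between 133 and 144 CPM.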

How the results depend on the processing

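No paired analysis was possible because the labels give no replicate numbers, though the animals' numbers fall into 3 series, 2 of them shared by both groups, and a block on the series was run. Calls of members higher in KO numbered 0 by edgeR QL, 3 with DESeq2, and 1 (Csf1r) with library totals (adjusted p = 0.0499) or with no filter on low counts. Over the fits that leave out 1 library they numbered 0 to 2, the 2 being Csf1r and Cd68 without KO replicate 3. Calls of members lower in KO, and calls higher in KO in the list of 60 leukocyte genes, numbered 0 in all 16 other settings. With library totals the median over all genes moved from -0.02 to 0.13. All genes called numbered 316, and 749 with DESeq2, 575 with limma-voom, 140 with a filter of 5 CPM in 4 libraries, 199 with the batch term and 29 with the block, and 36 to 388 over the fits that leave out 1 library. Dividing-cell calls numbered 35, and 7 with the 5 CPM filter, which tests fewer genes, 21 with the batch term, 1 with the block and 3 to 35 over the fits that leave out 1 library.

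The log2 ratio of summed marker levels was 0.62, 1.31 without the MHC class II genes and Cd74, -0.10 without Csf1r and, chosen after seeing the data, -0.39 without Csf1r, Ptprc and Cd68. It was 0.43 to 0.76 over the fits that leave out 1 library. Signs turned for uncalled genes near 0. Laptm5 was 0.0215 with DESeq2, 0.11 with library totals, 0.0075 with no filter and 0.0698 with the block. H2-Eb1 was 0.0453 and Csf1 0.0547 with library totals, and Csf1 0.0091 with the block. With limma-voom Mrc1 was -0.13, C1qb -0.0789, H2-Aa -0.22, Ctss -0.29, Cd34 -0.23 and Mif 0.0571. With the block C1qb was -0.0198 and H2-Aa -0.0211. Over the fits that leave out 1 library, the ranges were -0.48 to 0.40 for Laptm5, -0.15 to 0.43 for Mrc1, -0.51 to 0.46 for C1qb, -0.48 to 0.41 for H2-Aa, -0.63 to 0.19 for H2-Eb1, -0.70 to 0.50 for Ctss, -0.57 to 0.13 for Csf1 and -0.44 to 0.52 for Cd34. The cause was not tested. The 95% intervals were wide, spanning -1.62 to 1.85 for Ctss and -1.84 to 0.38 for the better counted Cd74.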
